A study of Drosophila melanogaster with 36 samples.

Results

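Gene expression was compared between haltere and wing cells of the distal appendage primordium, sorted from Drosophila melanogaster imaginal discs. The comparison used the 4 RNA-seq libraries labelled as nub cells, 2 from haltere and 2 from wing discs, of 36 samples in the series. The 4 other RNA-seq libraries, from tsh cells of both discs, entered the same fit. Samples of ATAC-seq (17) and ChIP-seq (11) were not used here. Haltere nub and wing nub cells came from yw;nub.gal4;uas-kash.GFP larvae, and haltere tsh and wing tsh cells from yw;tsh.gal4;uas-kash.GFP larvae. The nub and tsh drivers put a GFP on the nuclear envelope, active in distal and in proximal disc cells. All larvae were labelled WT, were at the L3 wandering stage and were raised on cornmeal food at 25 °C. No group carried a change in Ubx itself. The groups therefore differ in the disc of origin as a whole. Nothing in the labels states that the replicates of a group are separate batches of animals. The p-values therefore refer to the spread among these libraries, which may be technical.

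The wing and the haltere are serially homologous dorsal appendages of neighbouring thoracic segments. The Hox gene Ubx is active in the haltere disc and turns wing development into haltere development there. The haltere is a small, balloon-shaped balancing organ with many mechanosensory organs, whereas the wing becomes a broad, veined blade. Both pouches grow as epithelial sheets until the end of larval life and express nub, which encodes a POU domain transcription factor.

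Ubx read 2738 and 2753 CPM in haltere nub cells, against 2.05 and 6.94 CPM in wing nub cells, where CPM is the count scaled to library size by TMM. The driver's own gene nub read 1036 and 1041 CPM in haltere nub cells, against 1651 and 1587 CPM in wing nub cells, and averaged 10.4 CPM in haltere tsh and 37.4 CPM in wing tsh cells. Both genes followed the labels in every library. The haltere nub libraries held 96525031 and 92342738 counts, and the 6 others held 15110163 to 17705451. A single read was worth 0.0102 and 0.0108 CPM in haltere nub and 0.0587 and 0.0564 CPM in wing nub libraries, so that low genes were measured more finely in the haltere. At least 1 read was found for 15829 and 15508 genes in haltere nub and for 13265 and 14557 genes in wing nub libraries. Transcripts of the mitochondrial genome took 3.1% and 3.42% of the counts in haltere nub and 4.46% and 3.81% in wing nub libraries. The depth was checked by thinning the haltere nub libraries at random to 17489591 and 17500343 counts. Thinning evens the counts only. Haltere nub was the sole group at the greater depth, so a difference in library handling cannot be told apart from the disc, also in the interaction term used below.

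Of 11198 genes tested, 2614 (23.3%) differed between haltere and wing nub cells, 1089 of them higher (9.72%) and 1525 lower (13.6%) in the haltere, by edgeR's quasi-likelihood test with a Benjamini-Hochberg adjusted p under 0.05. Most differences were small. Called genes with at least a 2-fold difference numbered 506 higher (4.52%) and 203 lower (1.81%). The higher genes were thus fewer but moved further. Thinning to similar total counts left 2438 calls, of which 2334 were among the 2614, with 467 higher and 214 lower by at least 2-fold. In sorted bulk cells, fewer cells of a type and less RNA per cell cannot be told apart, here and in all results that follow. The split between directions depended on the scaling: 41.7% of called genes were higher with TMM, 57.5% with upper quartile scaling and 60.7% after a filter of 1 CPM, which also moved the median of all genes to 0.11 on the log2 scale from -0.01. Without haltere nub replicate 1 the calls numbered 1260, without replicate 2 1176, without wing nub replicate 1 1294, and without wing tsh replicate 1 or 2 3664 and 3624.

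**Figure D1:**
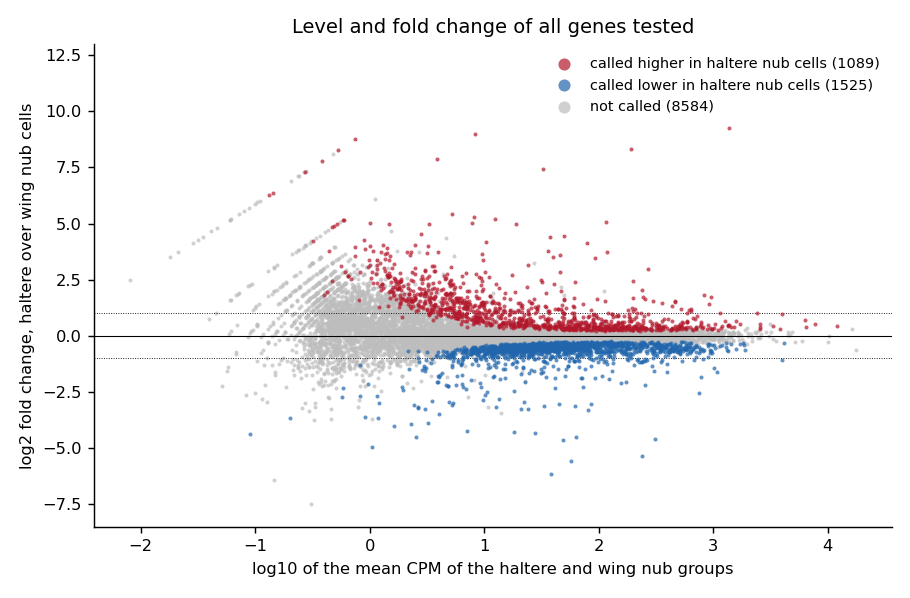
Fold change of each of the 11198 genes tested (vertical axis, log2 of haltere over wing nub cells) against the mean CPM of the haltere and wing nub groups (horizontal axis, log10), with genes called higher in red, genes called lower in blue and the others in grey; dotted lines mark 2-fold. The 1089 higher genes spread far upwards at low and middle levels, whereas the 1525 lower genes lie mostly in a narrow band close below 0; the slanting grey rows at the left are genes with few or no reads in the wing nub libraries.

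The genes lower in haltere nub cells included most of the machinery that makes ribosomes and protein. Of 36 ribosome biogenesis genes tested, 31 were lower and none higher, with a median log2 fold change of -0.64. Of 86 cytosolic ribosomal proteins, 64 were lower and none higher (median -0.57), and of 45 translation factors 28 were lower and none higher (median -0.39). The share of all tested genes called lower was 13.6%, and the median of all tested genes was -0.01. Among genes whose higher nub group lay between 20 and 100 CPM, 24.4% were called lower, with a median of -0.11. Fib, the methyltransferase of box C/D small nucleolar particles, read 32.7 and 35.9 CPM in haltere nub cells, against 76.0 and 73.7 CPM in wing nub cells (log2 fold change -1.13 ± 0.11 SE, edgeR adjusted p = 3.2e-05). NHP2, a protein of box H/ACA particles, read 12.4 and 11.7 CPM against 27.8 and 26.4 CPM (-1.17 ± 0.11). The libraries of the 2 discs did not overlap for either gene. Nnp-1 (-1.05 ± 0.11), peng (-0.89 ± 0.10), Nph, of the nucleoplasmin family of histone chaperones (-0.88 ± 0.10), and nop5, a core protein of box C/D particles (-0.85 ± 0.10), were lower as well. These 6 genes kept their call under every alternative tried, including each library left out.

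The elongation factor genes showed the same direction at far higher counts. The gene eEF1alpha1 encodes the factor that brings aminoacyl-tRNA to the ribosome. It read 2510 and 2610 CPM in haltere nub cells, against 5191 and 5632 CPM in wing nub cells, a log2 fold change of -1.08 ± 0.10 (edgeR adjusted p = 2.6e-05). Its exchange factor subunits were lower by a similar amount, eEF1beta at 228 and 227 CPM against 510 and 454 CPM, and eEF1gamma at 440 and 433 CPM against 966 and 861 CPM. The translocation factor eEF2 (-0.76 ± 0.10) and the initiation factor 3 subunits eIF3b (-0.80 ± 0.09) and eIF3e (-0.76 ± 0.10) followed. Among ribosomal proteins, RpS21 had the largest difference of those called, at 149 and 147 CPM in haltere against 316 and 340 CPM in wing nub cells (-1.15 ± 0.12). RpS2 (-0.93 ± 0.11), RpLP2 (-0.93 ± 0.09) and RpL13 (-0.82 ± 0.11) came next. Ribosomal protein genes have near-identical copies in the genome, and how reads shared by copies were counted is not given in the sources used here.

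Summed over the members, cytosolic ribosomal proteins took 31625 and 31797 CPM in haltere nub cells, against 45672 and 46680 CPM in wing nub cells. Translation factors took 9787 and 10083 CPM against 15545 and 15950 CPM, and ribosome biogenesis genes 1420 and 1490 CPM against 2189 and 2211 CPM. In each list both haltere nub libraries lay below both wing nub libraries. The proximal cells did not show that order: cytosolic ribosomal proteins took 45621 and 43397 CPM in haltere tsh and 38486 and 48666 CPM in wing tsh cells, and none of the 86 was called between the tsh groups, where 2.22% of tested genes were called lower. The difference between discs in nub cells was tested against that in tsh cells as an interaction term, which 8.1% of tested genes passed in the lower direction. It was called lower for 54 of the 86 ribosomal proteins, 22 of the 45 translation factors and 20 of the 36 biogenesis genes. Left out in turn, the nub libraries gave 25 to 29 lower biogenesis genes, 44 to 56 lower ribosomal proteins and 18 to 23 lower translation factors, the last falling to 18 without haltere nub replicate 2. The list medians stayed between -0.66 and -0.53 for ribosome biogenesis, between -0.58 and -0.46 for cytosolic ribosomal proteins and between -0.40 and -0.28 for translation factors over all settings.

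**Figure D2:**
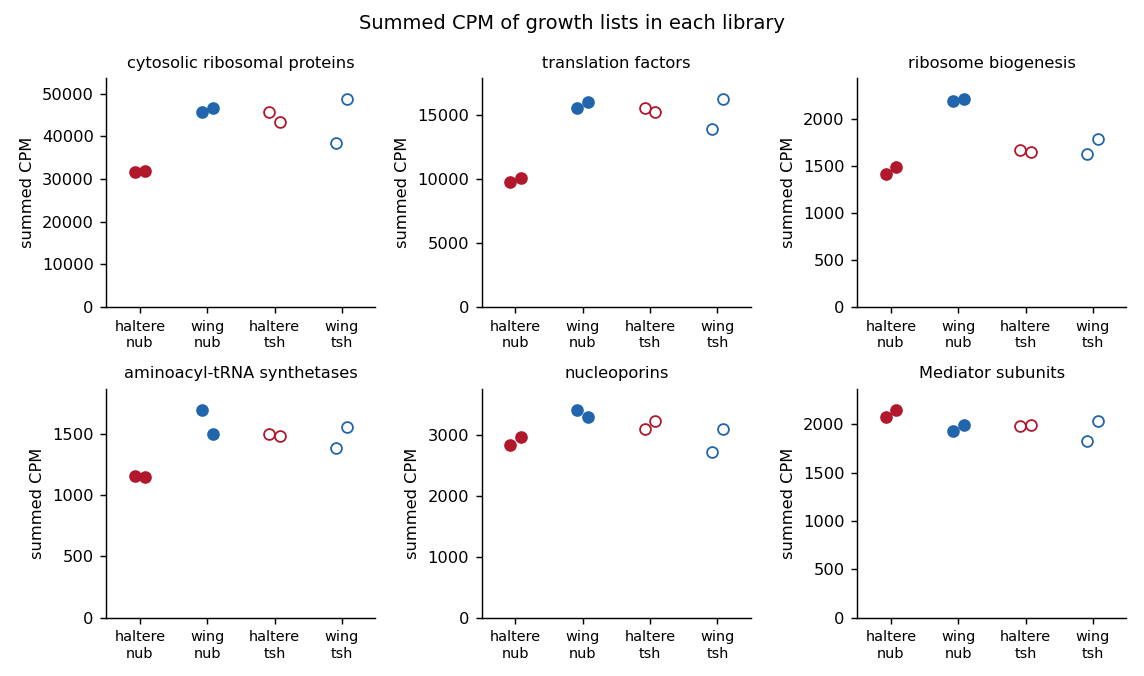
Summed CPM of 6 gene lists (vertical axes from 0) in each RNA library, with haltere nub, wing nub, haltere tsh and wing tsh libraries from left to right (filled points, nub; open points, tsh; red, haltere; blue, wing). In the lists of ribosomal proteins, translation factors, ribosome biogenesis genes, tRNA synthetases and nucleoporins both haltere nub libraries lie below both wing nub libraries, and Mediator subunits, of which 1 was called higher and 1 lower, lie close together in all libraries.

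Several other housekeeping groups had many members lower in haltere nub cells. Of 33 aminoacyl-tRNA synthetases, which charge tRNAs, 17 were lower and none higher (median -0.43), led by AlaRS, at 81.8 and 86.8 CPM in haltere and 154 and 134 CPM in wing nub cells (-0.77 ± 0.11, edgeR adjusted p = 0.0005). Of 14 genes of the CCT chaperonin and prefoldin, which fold actin and tubulin, 10 were lower, CCT1 most (-0.83 ± 0.12). Of 24 nucleoporins, 14 were lower, with Nup50 at 43.5 and 40.3 CPM in haltere and 70.6 and 72.0 CPM in wing nub cells (-0.77 ± 0.10). The counts depended on single libraries: aminoacyl-tRNA synthetases gave 9, 8, 7 and 16 lower members without haltere nub replicate 1, haltere nub replicate 2, wing nub replicate 1 and wing nub replicate 2. In the same order the CCT chaperonin and prefoldin list gave 5, 6, 5 and 10, and nucleoporins gave 3, 7, 6 and 11. Their medians stayed below 0 in every setting. Of 20 Sm and LSm proteins of the splicing machinery, 10 were lower and none higher, and of 38 proteasome subunits 10 were lower and none higher. The 26.3% lower of the proteasome was near the 24.4% of all genes at 20 to 100 CPM. Leaving out the haltere nub libraries (1, then 2) and the wing nub libraries (1, then 2) gave 4, 2, 5 and 5 of the Sm and LSm proteins and 2, 2, 1 and 9 of the proteasome, and without either wing tsh library 22 proteasome subunits were lower. The 28 Mediator subunits, which link transcription factors to RNA polymerase, had 1 higher and 1 lower.

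The TCA cycle and nucleotide synthesis also held many lower genes. Of 27 genes of the TCA cycle, 12 were lower and none higher (median -0.35). Fum1, a fumarase, read 38.3 and 36.8 CPM in haltere and 66.9 and 64.6 CPM in wing nub cells (-0.81 ± 0.09, edgeR adjusted p = 7.7e-05). The aconitase mAcon1 (-0.68 ± 0.09), the succinyl-CoA synthetase subunit Scsalpha1 (-0.67 ± 0.11), the citrate synthase kdn (-0.63 ± 0.12) and the succinate dehydrogenase subunit SdhA (-0.59 ± 0.09) were lower as well. Without haltere nub replicate 1 the TCA cycle count was 5 and without wing nub replicate 1 it was 6. Of 26 genes of nucleotide and one-carbon synthesis, 14 were lower and 1 higher. Ahcy, the S-adenosylhomocysteine hydrolase of the methyl cycle, read 38.2 and 40.8 CPM in haltere and 80.4 and 73.7 CPM in wing nub cells (-0.96 ± 0.11). The list of nucleotide and one-carbon synthesis gave 1 lower call without haltere nub replicate 1 and 5 without wing nub replicate 1. Of 33 genes of glycolysis and sugar metabolism, 6 were lower and 1 higher, with a median of -0.10, and PyK, the pyruvate kinase (-0.50 ± 0.09), was the one of the 6 whose call did not depend on any single nub library. Glycolysis and sugar metabolism gave 3 lower and 3 higher under upper quartile scaling. Of 22 mitochondrial genome transcripts tested, 3 were lower, the same share (13.6%) as of all tested genes. Hsp60A, the mitochondrial chaperonin, read 69.5 and 77.2 CPM in haltere and 170 and 150 CPM in wing nub cells (-1.12 ± 0.10). The gene blw, which encodes the alpha subunit of ATP synthase, read 160 and 179 CPM against 390 and 327 CPM (-1.08 ± 0.11).

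The growth regulator Myc, a bHLH factor known to drive ribosome production in flies, read 135 and 173 CPM in haltere nub cells, against 405 and 496 CPM in wing nub cells. Its log2 fold change was -1.55 ± 0.13 (edgeR adjusted p = 1.8e-05), and the interaction term against tsh cells was -1.12 (edgeR adjusted p = 0.003). The libraries of the discs lay far apart. Myc overlaps CG12535 and lncRNA:CR44999 in the annotation, and reads of overlapping genes cannot be told apart here.

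Lipid handling differed in both directions among 47 genes tested, with 6 lower (12.8%) and 4 higher (8.51%), shares close to the 13.6% and 9.72% of all tested genes. Among the lower ones, Lsd-2, a perilipin of lipid droplets, read 195 and 198 CPM in haltere nub cells, against 571 and 622 CPM in wing nub cells (-1.60 ± 0.09, edgeR adjusted p = 5.3e-07). The lipophorin receptors LpR1 (65.7 and 68.6 CPM against 134 and 142 CPM, -1.04 ± 0.08) and LpR2 (475 and 455 CPM against 785 and 804 CPM, -0.77 ± 0.08) take up circulating lipid. The 4 higher ones were FASN1, the fatty acid synthase (0.79 ± 0.13), Lpin, the phosphatidate phosphatase lipin (0.96 ± 0.10), SREBP, the transcription factor of lipid synthesis (0.50 ± 0.10), and whd, a carnitine palmitoyltransferase (0.73 ± 0.12). Upper quartile scaling gave 5 lower and 8 higher genes of lipid metabolism. Sugar and amino acid transporters had 7 lower and 3 higher of 35, with the amino acid transporter genes JhI-21 (-0.88 ± 0.09) and path (-0.66 ± 0.11) and the citrate transporter gene Indy (-0.80 ± 0.08) among the lower ones. MFS14, a major facilitator family transporter, read 72.4 and 69.0 CPM against 174 and 162 CPM (-1.25 ± 0.10).

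**Figure D3:**
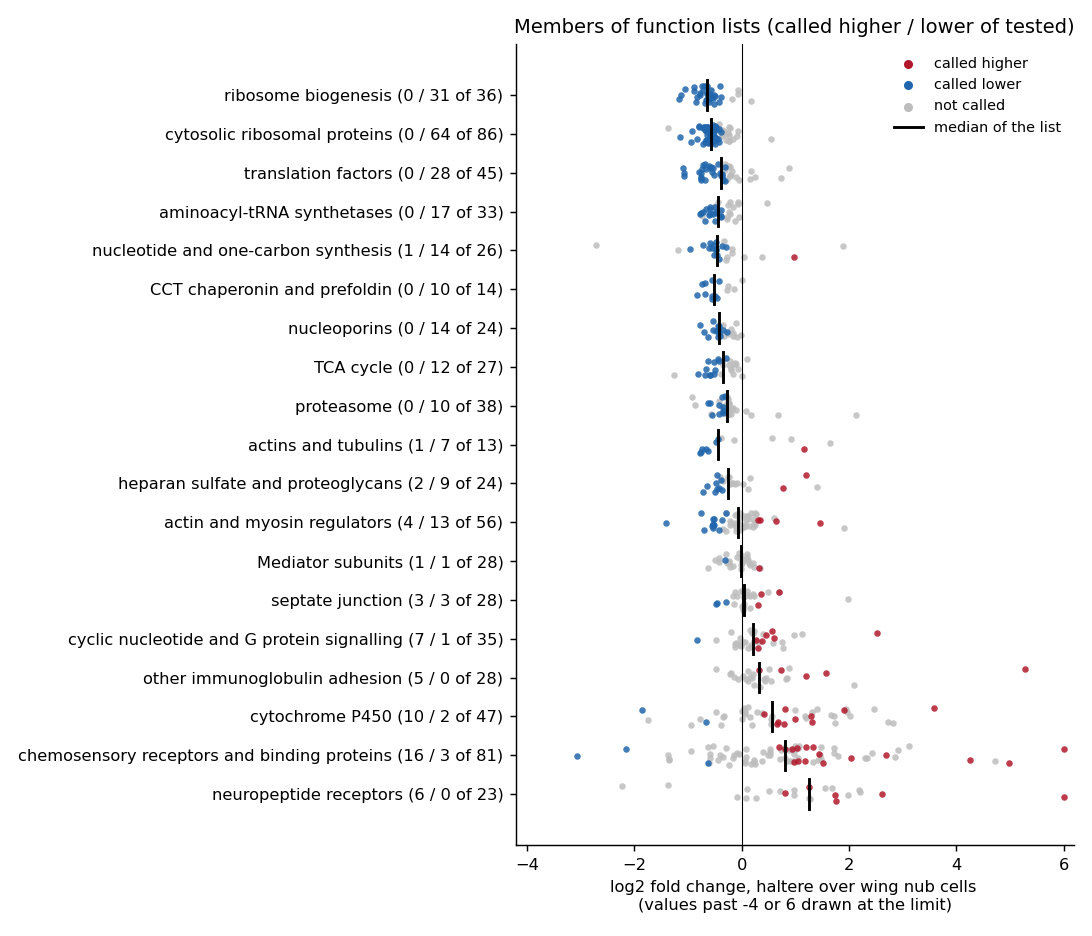
Log2 fold change, haltere over wing nub cells (horizontal axis), of every tested member of 19 function lists (rows), with members called higher in red, called lower in blue and others in grey; black bars mark list medians and row labels give the counts called higher and lower of those tested. Growth and housekeeping lists at the top lie left of 0 as tight groups, and receptor lists at the bottom lie mostly right of 0 with a wide spread.

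Several receptor families had more members higher than lower in haltere nub cells, most of them at low levels. Over all genes whose higher nub group lay between 1 and 5 CPM, the median log2 fold change was 0.31, 7.92% were called higher and 1.49% lower, and after thinning these values were 0.33, 6.85% and 1.17%. The medians of low lists therefore stand beside a positive background, whose cause was not tested. Of 23 neuropeptide receptors, 6 were higher and none lower (median 1.26). Of the 15 that overlap no other annotated gene, 1 was higher, and reads of overlapping genes cannot be told apart here. Summed over the list, neuropeptide receptors took 231 and 269 CPM in haltere nub and 75.4 and 78.4 CPM in wing nub cells. CCAP-R alone took 58.1 and 70.9 CPM of the haltere nub sums. Dh31-R, the receptor of diuretic hormone 31, read 19.8 and 18.0 CPM in haltere nub cells, against 2.52 and 3.61 CPM in wing nub cells (2.62 ± 0.17, edgeR adjusted p = 1.4e-06). CCHa2-R, the receptor of the peptide CCHamide-2, read 15.6 and 19.0 CPM against 4.52 and 5.64 CPM (1.77 ± 0.28). The bursicon receptor gene rk read 6.84 and 7.18 CPM against 2.58 and 3.27 CPM (1.26 ± 0.25), a call lost without wing nub replicate 1. The 2 discs did not overlap at any of these receptors. CCAP-R, at 58.1 and 70.9 CPM against 0.176 and 0.564 CPM, added the largest difference (7.42 ± 1.09, edgeR adjusted p = 0.01), but its call was lost without any single nub library. The count of neuropeptide receptors was 3 without wing nub replicate 1 and 4 or 5 without each other nub library, and 9 without either wing tsh library.

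Chemosensory receptors and binding proteins were higher in 16 and lower in 3 of 81 cases (median 0.81). These families are best known from sensory neurons. Ir93a, an ionotropic receptor known from sensing temperature and humidity, read 28.5 and 36.2 CPM in haltere nub cells, against 15.0 and 16.4 CPM in wing nub cells (1.04 ± 0.17, edgeR adjusted p = 0.0014). The odorant receptor gene Or1a read 6.10 and 6.74 CPM against 0.117 and 0.282 CPM and lies inside an annotated gene, CG3777, while its call was lost without any single nub library. Or65a and Or65b are neighbouring, similar genes whose counts may share reads. Thinning left 13 higher and 1 lower in the list of chemosensory receptors and binding proteins. The 4 nub libraries left out in turn gave 7 and 4 higher without haltere nub replicates 1 and 2, and 6 and 9 higher without wing nub replicates 1 and 2. Of 39 amine and transmitter receptors, 2 were higher, 1 without haltere nub replicate 1 and 0 without each other nub library. Of 16 DEG/ENaC channels, a family that includes mechanosensory channels, 3 were higher and 1 lower. The channel gene ppk13 read 62.8 and 67.9 CPM against 24.0 and 32.6 CPM (1.21 ± 0.16), and rpk, named ripped pocket, read 3.33 and 2.63 CPM against 9.51 and 10.4 CPM (-1.74 ± 0.21). Among 48 other ion channels, the TRP channel genes pain (37.0 and 37.8 CPM against 103 and 92 CPM, -1.38 ± 0.11) and pyx (9.14 and 10.3 CPM against 2.99 and 3.95 CPM, 1.48 ± 0.24) moved opposite ways, and the sodium channel family gene NaCP60E was higher (0.69 ± 0.08). Of 6 innexin genes, which form gap junctions, ogre was lower at 1023 and 1053 CPM in haltere and 1578 and 1742 CPM in wing nub cells (-0.68 ± 0.09). Inx2 (-0.32 ± 0.09) and Inx3 (-0.36 ± 0.09) were lower by less, with calls lost when libraries were left out, and Inx5 (0.93 ± 0.55), Inx7 (-0.79 ± 0.51) and shakB (0.61 ± 1.73) did not pass the test.

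Of 28 genes of other immunoglobulin adhesion, 5 were higher (17.9%, beside 9.72% of all tested genes) and none lower, 4 when any nub library was left out and 8 with upper quartile scaling. The gene rst, an adhesion protein of the irre cell recognition module, read 694 and 693 CPM in haltere nub cells, against 233 and 233 CPM in wing nub cells (1.57 ± 0.08, edgeR adjusted p = 2.5e-07). Its partner and neighbour kirre read 113 and 109 CPM against 69.6 and 64.2 CPM (0.73 ± 0.10). In tsh cells both lay lower in the haltere (-0.77 and -1.20, edgeR adjusted p = 0.00019 and 9.8e-05), so that the difference between discs turned round with the domain and the interaction, called higher for 7.32% of tested genes, was 2.35 for rst and 1.93 for kirre. In the same tsh cells 6 of 9 myoblast markers, kirre and sns among them, were lower in the haltere and none higher, with a median of -1.20 and summed levels of 297 and 285 CPM in haltere tsh and 432 and 420 CPM in wing tsh cells, and their part in the result was not tested. The gene sns, which encodes another member of the module, read 110 and 116 CPM against 127 and 110 CPM and did not pass the test. Dscam1, an immunoglobulin receptor with many isoforms, read 856 and 929 CPM against 403 and 372 CPM (1.20 ± 0.09), and nrm, an adhesion protein named neuromusculin, read 259 and 280 CPM against 117 and 135 CPM (1.09 ± 0.18). Among the 13 beat and side genes 1 was higher and 1 lower. The lower one was side, a guidance protein of motor axons, at 1.55 and 1.82 CPM in haltere and 7.28 and 8.74 CPM in wing nub cells.

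Guidance and adhesion genes outside that class were split. Of 34 axon guidance genes, 4 were higher (11.8%) and 5 lower (14.7%), near the 9.72% and 13.6% of all tested genes. Upper quartile scaling gave 12 higher and 4 lower. The Slit receptor gene robo2 read 822 and 868 CPM in haltere nub cells, against 401 and 355 CPM in wing nub cells (1.16 ± 0.10, edgeR adjusted p = 1.9e-05). Sema2b, a secreted semaphorin, was higher (0.48 ± 0.08), and NetA, a netrin, was lower (-0.55 ± 0.09). The gene drl, a Ryk family receptor of Wnt5, read 351 and 318 CPM against 728 and 736 CPM (-1.13 ± 0.09). Of 17 cadherins, 4 were higher and 1 lower, of which CadN, N-cadherin, at 122 and 124 CPM against 62.3 and 67.9 CPM (0.91 ± 0.08), was the one that held without each library. E-cadherin, shg (0.31 ± 0.09), and the planar polarity cadherin stan (0.33 ± 0.10) passed the test but lost it without any single nub library. Septate junction genes gave 3 higher and 3 lower of 28 (10.7% each), and genes of apical polarity and adherens junctions 3 higher and 1 lower of 17. That 1 was the beta-catenin gene arm, at 440 and 455 CPM against 665 and 646 CPM (-0.55 ± 0.09). Of 30 tetraspanins 4 were higher and 2 lower, with Tsp42Ei at 1.06 and 1.17 CPM in haltere and 8.98 and 8.4 CPM in wing nub cells (-2.96 ± 0.47).

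Other abundant genes of the cell surface and matrix, from a set chosen by level after the values were seen, had differences of 2-fold or more. The integrin alpha subunit gene scb read 156 and 138 CPM in haltere nub cells, against 48.5 and 45.5 CPM in wing nub cells (1.64 ± 0.16, edgeR adjusted p = 8.4e-05). The integrin ligand tenectin, tnc, read 785 and 781 CPM against 408 and 371 CPM (1.01 ± 0.17). Ddr, a receptor tyrosine kinase of the discoidin domain class, whose vertebrate relatives bind collagen, read 94.1 and 115 CPM against 17.8 and 22 CPM (2.39 ± 0.13). The fasciclin domain gene mfas read 303 and 313 CPM against 99.9 and 88.7 CPM (1.71 ± 0.10). All 4 lay higher in both haltere nub libraries than in either wing nub library.

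Of 13 actins and tubulins, 7 were lower in haltere nub cells, 1 was higher and the rest did not pass the test. Act5C, a cytoplasmic actin, read 1494 and 1496 CPM in haltere nub cells, against 2295 and 2335 CPM in wing nub cells (-0.63 ± 0.11, edgeR adjusted p = 0.0019). The second cytoplasmic actin Act42A (-0.76 ± 0.10) and the alpha tubulins alphaTub84B (-0.78 ± 0.13) and alphaTub84D (-0.66 ± 0.10) followed, with the reservation that these pairs are near copies whose reads may be shared. Of 56 actin and myosin regulators, 13 were lower and 4 higher with TMM and 11 lower and 12 higher with upper quartile scaling. The 23.2% lower with TMM was near the 24.4% of all genes at 20 to 100 CPM. Lower were form3, a formin (12.6 and 11.3 CPM against 34.9 and 28.9 CPM, -1.42 ± 0.12), the fascin gene sn (-0.70 ± 0.09), which bundles actin in bristles and hairs, and the myosin gene ck (-0.55 ± 0.08). The actin nucleator gene spir was higher (29.4 and 31.1 CPM against 10.5 and 11.5 CPM, 1.46 ± 0.24).

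Of 27 Rab GTPases, which direct vesicle traffic, 6 were higher (22.2%) and none lower, beside 9.72% and 13.6% of all tested genes. Rab4 of recycling endosomes was among the 6 (0.51 ± 0.09). When any nub library was left out, 1 to 3 Rab GTPases were higher, and with upper quartile scaling 11 were. Of 35 genes of cyclic nucleotide and G protein signalling, 7 were higher (20.0%) and 1 lower (2.86%). Their median level in the higher nub group was 117 CPM, and of all genes above 100 CPM there, 15.4% were higher and 22.3% lower. Pde8, a cyclic nucleotide phosphodiesterase (0.60 ± 0.08), and Ac13E, an adenylyl cyclase (0.56 ± 0.10), held without each library, and removing a trend with gene span gave 4 higher and 4 lower for cyclic nucleotide and G protein signalling.

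Genes of the extracellular matrix and its sugars differed by member, beside 9.72% of all tested genes called higher and 13.6% lower. Of 24 heparan sulfate and proteoglycans genes, 9 were lower and 2 higher, with counts of 4, 3 and 4 lower without haltere nub replicate 1, haltere nub replicate 2 and wing nub replicate 1. The Notch-modifying glycosyltransferase gene fng read 307 and 316 CPM in haltere nub cells, against 533 and 488 CPM in wing nub cells (-0.71 ± 0.08, edgeR adjusted p = 0.00015). It is counted among the 9 lower ones, although its product modifies Notch and does not make heparan sulfate. The linkage enzyme gene beta4GalT7 was lower (-0.65 ± 0.10), and the glypican gene dally was lower by less (1005 and 935 CPM against 1295 and 1365 CPM, -0.46 ± 0.10), a call lost without haltere nub replicate 2. The sulfotransferase gene Hs6st (116 and 133 CPM against 70.9 and 74.2 CPM, 0.78 ± 0.09) and the proteoglycan gene kon (59.1 and 62.8 CPM against 25.7 and 27.6 CPM, 1.19 ± 0.11) were higher. Among 20 mucins and GalNAc transferases, 4 were higher and 3 lower. The transferases Pgant9 and Pgant2 moved opposite ways: Pgant9 read 323 and 306 CPM against 164 and 142 CPM (1.04 ± 0.11), and Pgant2 read 3.24 and 3.22 CPM against 18.3 and 18.0 CPM (-2.49 ± 0.12). The matrix metalloprotease gene Mmp1 was lower at 124 and 112 CPM against 238 and 238 CPM (-1.01 ± 0.12).

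Apical matrix and cuticle genes were split as well. Of 45 cuticular RR proteins, structural proteins with a chitin-binding motif, 7 were higher (15.6%) and 5 lower (11.1%), beside 9.72% and 13.6% of all tested genes. Cpr35B, at 17.8 and 17.8 CPM in haltere and 1.17 and 1.69 CPM in wing nub cells (3.63 ± 0.51, edgeR adjusted p = 0.0015), and Cpr49Ah, at 17.4 and 32.9 CPM against 115 and 126 CPM (-2.26 ± 0.28), are examples of each direction. Cpr66D was lower too, at 7.28 and 8.28 CPM against 18.5 and 24.1 CPM (-1.45 ± 0.20). Among 11 Tweedle cuticle proteins 1 was higher and 2 lower, and among 11 Osiris genes 1 was higher and 1 lower. Of 17 genes of chitin synthesis and modification, 5 were lower and 2 higher. The chitinase Cht5 read 23.5 and 22.2 CPM against 78.5 and 79.8 CPM (-1.79 ± 0.09), and in tsh cells it was higher in the haltere (234 against 57.0 CPM on average, 2.03, edgeR adjusted p = 3.4e-07). The chitin deacetylase genes Cda4 (-1.08 ± 0.10) and Cda5 (0.85 ± 0.12) moved opposite ways. The peritrophin-like genes obst-A (282 and 244 CPM against 402 and 436 CPM, -0.67 ± 0.10) and obst-B (-0.81 ± 0.12) were lower.

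Of 13 genes with a ZP domain, which anchor the apical matrix, 4 were higher and 5 lower, where 9.72% and 13.6% of all tested genes were. The giant matrix protein gene dpy read 6839 and 7740 CPM in haltere nub cells, against 5718 and 5381 CPM in wing nub cells (0.39 ± 0.11, edgeR adjusted p = 0.024), and this call was lost without any single nub library. The gene nw, which encodes a lectin needed for wing shape, read 7769 and 7998 CPM against 4919 and 4645 CPM (0.72 ± 0.09) and kept its call without each library. The ZP gene mey was higher (0.61 ± 0.10), and qsm (-0.62 ± 0.08), nyo (-0.46 ± 0.08) and dy, a gene of wing cell hairs and cuticle (-1.01 ± 0.20), were lower. Of 11 trichome effectors 4 were lower and 1 higher, among the lower ones ovo, the transcription factor that starts trichome formation (610 and 637 CPM against 873 and 896 CPM, -0.50 ± 0.08). Of 15 pigment and sclerotisation genes 3 were higher and 2 lower, with yellow-e at 9.30 and 9.68 CPM against 2.41 and 3.5 CPM (1.68 ± 0.25).

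Proteases and their inhibitors had a few large differences, beside 9.72% of all tested genes called higher and 13.6% lower. Of 24 serpins and Kunitz inhibitors, 6 were lower and 4 higher. The neighbours Spn43Ab (13.5 and 13 CPM in haltere against 43.4 and 32.4 CPM in wing nub cells, -1.51 ± 0.14), Spn43Ad (-1.36 ± 0.13) and nec (-1.03 ± 0.14), a serpin that restrains Toll signalling, were lower together. They lie within the gene pk in the annotation, so that their counts could share reads with it. Spn100A read 148 and 128 CPM against 335 and 282 CPM (-1.16 ± 0.15, edgeR adjusted p = 0.00071). Of 22 trypsin-like serine proteases and homologues, 3 were higher and 1 lower. The lower one was Sb, the transmembrane protease Stubble known from leg and wing elongation, at 172 and 153 CPM against 426 and 407 CPM (-1.36 ± 0.11). The gene modSP, a protease upstream of Toll, was higher at 281 and 256 CPM against 155 and 147 CPM (0.83 ± 0.09). Of 22 neprilysins and carboxypeptidases, 4 were higher and 2 lower. Nep1, a neprilysin peptidase, read 17.1 and 18.7 CPM against 66.0 and 64.7 CPM (-1.87 ± 0.10), and Acer, a relative of angiotensin-converting enzyme, read 8.47 and 9.07 CPM against 3.11 and 2.26 CPM (1.71 ± 0.22). Of 31 immunity genes, 5 were lower and 1 higher, led by the peptidoglycan receptor gene PGRP-LC (2.50 and 2.21 CPM against 9.33 and 11.6 CPM, -2.15 ± 0.23) and the Toll ligand gene spz (7.96 and 8.16 CPM against 21.4 and 23.7 CPM, -1.48 ± 0.21).

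Detoxification and redox families did not move as units, and of all tested genes 9.72% were called higher and 13.6% lower. Of 47 cytochrome P450 genes, 10 were higher and 2 lower (median 0.57), and only 1 to 7 were higher when a nub library was left out, with 1 without wing nub replicate 1 and 2 without haltere nub replicate 2. Cyp9b2 (10.9 and 14.5 CPM in haltere against 4.52 and 5.75 CPM in wing nub cells, 1.31 ± 0.21, edgeR adjusted p = 0.0014) and Cyp310a1, a P450 known to be strong in the wing pouch (28.0 and 32.8 CPM against 86.6 and 134 CPM, -1.86 ± 0.18), held without each library. Of 17 UDP-glycosyltransferase genes 4 were lower, the neighbours Ugt302K1 (2.29 and 2.23 CPM against 11.9 and 11.3 CPM, -2.35 ± 0.23) and Ugt302C1 (-1.14 ± 0.09) among them. Of 27 glutathione S-transferase genes 5 were lower and 2 higher, and of 20 antioxidant and metal genes 5 were lower and 3 higher. The 25.0% lower of the antioxidant and metal genes was near the 24.4% of all genes at 20 to 100 CPM. Catalase, Cat, read 62.6 and 64.6 CPM against 127 and 126 CPM (-0.99 ± 0.15), and the ferritin subunit Fer1HCH was higher (0.49 ± 0.09, lost without haltere nub replicate 2). Of 12 genes of juvenile hormone and takeout, 4 were higher and none lower, Jhbp2 most clearly (25.7 and 16.3 CPM against 4.75 and 3.84 CPM, 2.29 ± 0.24). Of 10 genes of ecdysteroid synthesis and import 3 were higher and 1 lower. The 3 higher ones, sad, sro and spo, which encode enzymes of ecdysone synthesis, read under 5 CPM in all nub libraries, and each lost its call without either haltere nub library and without wing nub replicate 1. Of 17 ABC transporters 2 were higher and 3 lower, the first including snu, a transporter of cuticle lipids (155 and 159 CPM against 100.5 and 99.0 CPM, 0.66 ± 0.08), and of 20 V-ATPase subunits 2 were lower, both lost when libraries were left out.

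Transcription factor families also had members in both directions, beside 9.72% higher and 13.6% lower of all tested genes. Of 24 forkhead, Sox and ETS factors, 7 were higher and 4 lower. Sox15, a factor with a role in the wing hinge, read 114 and 120 CPM in haltere nub cells, against 54.9 and 52.0 CPM in wing nub cells (1.13 ± 0.09, edgeR adjusted p = 5.7e-06). The EGFR pathway's ETS factor gene pnt read 190 and 209 CPM against 129 and 130 CPM (0.63 ± 0.08), Sox14 was higher (0.58 ± 0.11), and foxo, the factor held back by insulin signalling, was lower (87.0 and 91.4 CPM against 122 and 121 CPM, -0.45 ± 0.08). Of 36 homeobox genes of the LIM, POU and related classes, 5 were lower (13.9%) and 4 higher (11.1%), shares close to those of all tested genes. The POU factor gene vvl, needed for veins and trachea, read 510 and 594 CPM against 1432 and 1533 CPM (-1.43 ± 0.10), and the Iroquois genes caup (40.0 and 39.5 CPM against 145 and 145 CPM, -1.86 ± 0.08) and ara (22 and 24.1 CPM against 67.5 and 62.2 CPM, -1.49 ± 0.09) were lower. The zinc finger homeodomain gene zfh2 read 3040 and 3476 CPM against 1546 and 1653 CPM (1.03 ± 0.11), and hth, a cofactor of Hox proteins, read 3028 and 3067 CPM against 2129 and 2050 CPM (0.54 ± 0.10).

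Of 35 bHLH and PAS factors, 3 were higher (8.57%) and 5 lower (14.3%), close to the 9.72% and 13.6% of all tested genes. Upper quartile scaling gave 10 higher and 3 lower. Besides Myc, trh, which sets tracheal fate in the embryo, was lower at 62.7 and 68.8 CPM in haltere and 199 and 194 CPM in wing nub cells (-1.58 ± 0.13, edgeR adjusted p = 1.9e-05). Of 20 nuclear receptors, 1 was higher, svp (9.54 and 8.07 CPM against 5.46 and 3.72 CPM, 0.94 ± 0.19), and 4 were lower, among them Hnf4, a regulator of lipid metabolism (-0.46 ± 0.08). Of 25 genes of programmed cell death and autophagy, 5 were higher and 3 lower. The death inducer gene hid read 281 and 293 CPM against 471 and 462 CPM (-0.70 ± 0.08), its target Diap1, an inhibitor of apoptosis, was lower as well (-0.40 ± 0.10, lost without either haltere nub library or wing nub replicate 2), and the autophagy gene Atg13 was higher (0.51 ± 0.09).

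The abundant genes with a 2-fold difference include many that belong to none of these families. Called genes with at least a 2-fold difference and 100 CPM or more in the higher nub group numbered 39 higher and 57 lower. They came from 2014 genes tested above 100 CPM, of which 310 were called higher and 449 lower by any amount. The set of 2-fold genes was added after the values were seen. Among the higher ones, cpo, an RNA-binding protein known from the peripheral nervous system, read 233 and 210 CPM in haltere nub cells, against 17.4 and 15.7 CPM in wing nub cells (3.74 ± 0.11, edgeR adjusted p = 2.9e-09). Glut4EF read 452 and 500 CPM against 58.7 and 62.0 CPM (2.98 ± 0.10), and CG42741 read 172 and 172 CPM against 16 and 14.9 CPM (3.48 ± 0.11). The annotated span of CG42741 overlaps that of twi, a mesoderm factor which stayed at 1.1 and 0.640 CPM in haltere and 1.47 and 1.07 CPM in wing nub cells. Each of these 3 lay many-fold apart in all library pairs. The gene mab-21, named after a worm gene, read 345 and 417 CPM against 101 and 84.8 CPM (2.04 ± 0.13), tinc, a multi-pass membrane protein, read 1264 and 1319 CPM against 378 and 353 CPM (1.82 ± 0.09), and frm read 1549 and 1367 CPM against 429 and 457 CPM (1.72 ± 0.16). The frm difference turned round in tsh cells, with 518 CPM in haltere and 2516 CPM in wing tsh cells on average (-2.28, edgeR adjusted p = 3.2e-05; interaction 4.00).

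More of these abundant genes encode factors of the nucleus or of signalling. The BTB domain factor genes bab2 (373 and 380 CPM in haltere against 122 and 106 CPM in wing nub cells, 1.72 ± 0.11) and mamo (483 and 397 CPM against 183 and 120 CPM, 1.54 ± 0.23), the POU factor gene pdm3 (173 and 166 CPM against 64.4 and 49.5 CPM, 1.57 ± 0.14) and jigr1, a MADF domain factor (1345 and 1304 CPM against 495 and 499 CPM, 1.41 ± 0.08), were higher. Tet, of the family of methylcytosine dioxygenases, was higher too, at 5153 and 5401 CPM against 2617 and 2757 CPM (0.97 ± 0.09, edgeR adjusted p = 2.6e-05). Its difference was just under 2-fold, so Tet lies outside this set of abundant genes. Within the set, the secreted BMP antagonist sog read 709 and 650 CPM against 241 and 241 CPM (1.49 ± 0.10), and Notum, a secreted esterase that inactivates Wnts, read 826 and 897 CPM against 402 and 407 CPM (1.09 ± 0.08). Also among them were puc, the phosphatase of the JNK pathway (303 and 277 CPM against 143 and 146 CPM, 1.00 ± 0.15), and scaf, a secreted protease homologue (167 and 159 CPM against 74.1 and 84.2 CPM, 1.04 ± 0.11). DnaJ-1, an Hsp40 cochaperone, read 284 and 267 CPM against 110 and 126 CPM (1.22 ± 0.18).

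Among the 57 lower ones, Msr-110 read 362 and 324 CPM in haltere nub cells, against 1268 and 1152 CPM in wing nub cells (-1.82 ± 0.10, edgeR adjusted p = 3.1e-07). Sdb, named as downstream of the vein and intervein factor gene bs, read 519 and 553 CPM against 1435 and 1804 CPM (-1.59 ± 0.12). Neither differed between the tsh groups (0.24 and -0.02, edgeR adjusted p = 0.21 and 0.96). The COE factor gene kn, of the central intervein, read 55.9 and 47.7 CPM against 197 and 189 CPM (-1.90 ± 0.37), although its call was lost without any single nub library. The BMP modulators nord (62.8 and 70.9 CPM against 274 and 284 CPM, -2.06 ± 0.10) and magu, also called Pentagone (134 and 121 CPM against 278 and 232 CPM, -1.0 ± 0.10), were lower. So were Trim9, a ubiquitin ligase (31.4 and 29.9 CPM against 113 and 113 CPM, -1.88 ± 0.09), CG8483 (12.8 and 12.9 CPM against 122 and 102 CPM, -3.12 ± 0.18), Samuel (-1.14 ± 0.09) and the sulfotransferase gene pip (-1.02 ± 0.08).

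**Figure D4:**
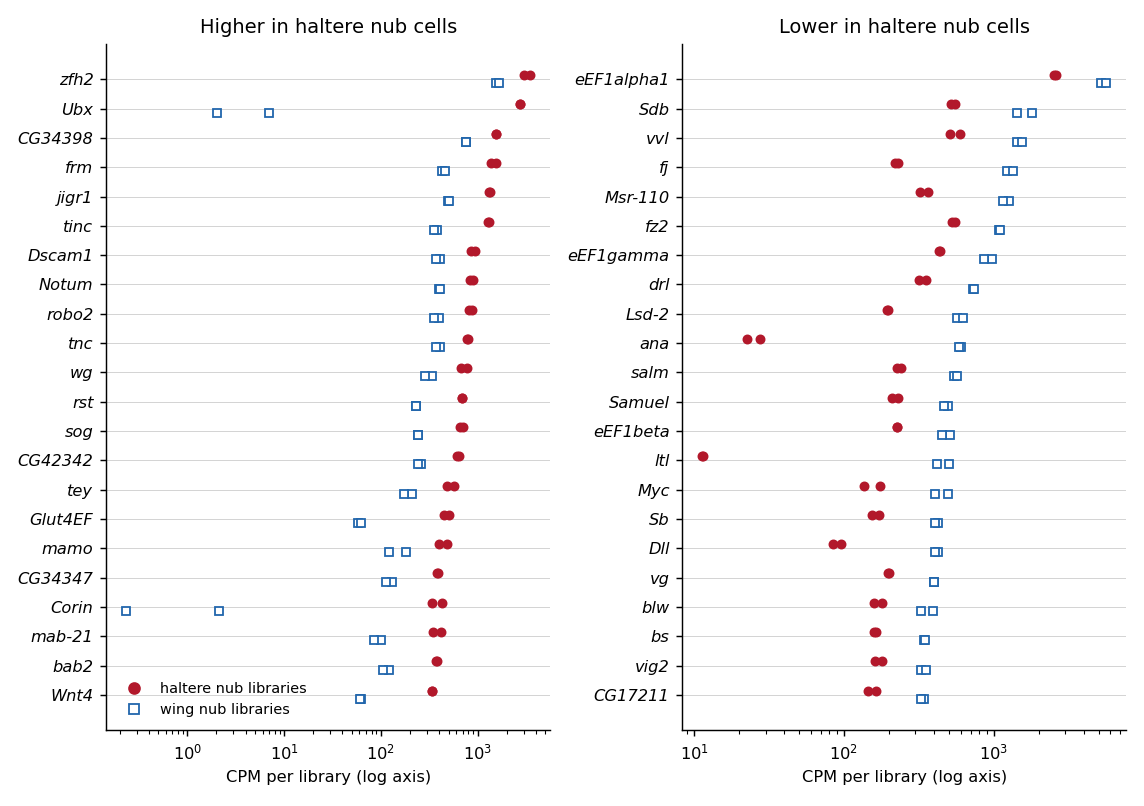
CPM of each nub library (horizontal axes, log scale) for the 22 genes of highest level among those called higher (left) and lower (right) in haltere nub cells by at least 2-fold and at 100 CPM or more in the higher group; filled circles are the haltere nub libraries and open squares the wing nub libraries. Both replicates of each disc lie apart from those of the other disc for every gene shown, and most differences are between 2-fold and 4-fold, with Ubx, Corin, ltl and ana far wider.

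Long noncoding and small RNAs were measured with the same libraries. Of 811 long noncoding and antisense RNAs tested, 65 were higher and 46 lower, shares of 8.01% and 5.67%, against 9.72% and 13.6% of all tested genes. Of the 811, 558 overlapped another annotated gene, and the 253 others had 20 higher and 4 lower. Over all genes at 1 to 5 CPM in the higher nub group, 7.92% were higher and 1.49% lower. The median level in that group was 2.47 CPM for the 811 RNAs. Among those at 5 CPM or more whose call did not depend on a single nub library, the largest higher one was lncRNA:CR44498, at 47.8 and 58.9 CPM in haltere and 10.4 and 8.69 CPM in wing nub cells (2.48 ± 0.15, edgeR adjusted p = 8.3e-07), beside mab-21 on chromosome X. On the lower side, lncRNA:CR45018 read 3.20 and 2.48 CPM against 16.3 and 18.8 CPM (-2.62 ± 0.18) and lncRNA:CR43650 read 15.7 and 14.6 CPM against 56.1 and 52.2 CPM (-1.84 ± 0.13). Of 230 small nuclear and nucleolar RNAs 6 were higher and 15 lower, led by snoRNA:Psi28S-2442b (9.85 and 9.99 CPM against 77.5 and 83.2 CPM, -3.02 ± 0.15), which overlaps another annotated gene. So do 214 of the 230. The abundant stress-responsive nuclear RNA lncRNA:Hsromega read 8600 and 9670 CPM against 6101 and 6431 CPM (0.54 ± 0.12), a call lost without wing nub replicate 1 or the second haltere nub library.

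Genes that moved by at least 2-fold sometimes stood side by side. Runs of 3 or more neighbouring tested genes, all called at least 2-fold in one direction, numbered 31, of which 23 were higher, with 77 genes, and 8 lower, with 28 genes. Coordinates are those of Release 6. The longest held pdm3 and 6 genes annotated inside it (2R, 8327490 to 8396280), with log2 fold changes of 1.16 to 1.68, and a gene that lies inside another may take its reads. The same holds for the run of Trim9 and 4 genes inside it (2L, 10544883 to 10628054). Runs with no gene inside another include pyr and ths, the 2 FGF8-like ligand genes, with Ir48b (2R, 11700647 to 11814424). The ligand gene ths averaged 53.2 CPM in haltere nub cells (log2 fold change 2.39) and pyr 7.94 CPM (1.92). On X, 5 genes around mab-21 were higher together (5966279 to 6013181), among them CG4766 (1.64) and CG5966 (2.68). The cuticle genes Ccp84Aa and Ccp84Ab lay beside lncRNA:CR33938 (3R, 6699560 to 6704903), and the aquaporin-like genes Eglp1 and Eglp2 beside CG43209 (2R, 23601981 to 23616754). CG43209 had 283 counts over the haltere nub libraries and 0 over the wing nub libraries, at least 17.2-fold higher against a floor of 3 counts over the wing group. In these runs the calls of Ir48b, CG43209 and Hsp70Bbb were lost without any single nub library, that of Eglp1 without either haltere nub library or wing nub replicate 2, and that of lncRNA:CR33938 without wing nub replicate 1. Lower runs included ara, caup and lncRNA:CR32111 (3L, 12580672 to 12648280). Hsp70Ba and Hsp70Bbb, in a run with a long noncoding RNA (3R, 12465453 to 12504856), are near-identical copies, and their counts are uncertain.

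Gene position and structure were described for the called genes. On chromosome 4, 24 of 93 tested genes were higher (25.8%) and 6 lower, with a median log2 fold change of 0.23, whereas the other large arms had 8.86% to 10.7% higher. Genes in the longest quartile of annotated span were higher in 17.3% and lower in 11.5% of cases, and those in the shortest in 5.39% and 10.0%. Among genes whose higher nub group lay above 100 CPM, 15.4% were higher and 22.3% lower, and thinning gave 14.9% and 22%. The span and level of genes thus moved with the calls, and their part in the results was not tested beyond the removal of the span trend, which left 2362 calls.

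Markers of other cells were read in the same libraries, where 9.72% of all tested genes were called higher and 13.6% lower. Of 9 myoblast markers 1 was higher, kirre, and the summed level was 388 and 381 CPM in haltere nub and 345 and 324 CPM in wing nub cells. The defining myoblast genes twi, htl, zfh1 and Him were under 4 CPM in every nub library. None of 7 hemocyte markers passed the test (sums of 97 and 98.2 CPM against 106 and 112 CPM), nor did any of 6 fat body and salivary gland markers, which summed to 11.2 and 8.77 CPM in haltere and 6.57 and 5.81 CPM in wing nub cells. Of 12 neuron markers 2 were higher, with sums of 436 and 457 CPM against 374 and 403 CPM, namely Csp (0.33), whose call was lost without any single nub library, and fne (2.39). Of 11 glia markers 1 was higher and 2 lower, with ana and nrv2 the lower ones (nrv2 lost without haltere nub replicate 2) and sums of 1040 and 1014 CPM against 1649 and 1570 CPM. Of 9 trachea markers 4 were lower and 1 higher, with sums of 3088 and 3122 CPM against 4564 and 4424 CPM. The lower ones were trh, kni, vvl and verm (the last lost without haltere nub replicate 2), and the higher one was btl, the tracheal FGF receptor gene, at 2.97 and 3.36 CPM in haltere and 0.704 and 1.64 CPM in wing nub cells. Of 15 muscle structural genes 2 were higher, of which sls, the titin-like gene, read 823 and 1071 CPM against 472 and 541 CPM (0.90 ± 0.13), with list sums of 1384 and 1640 CPM against 1000 and 1138 CPM. Of 15 peripodial and notum markers 5 were higher and 3 lower. The Pax factor gene eyg read 62.3 and 72.7 CPM against 15.1 and 12.4 CPM (2.30 ± 0.12), toe, its neighbour, was higher (0.96 ± 0.15), and dac, a leg and eye factor, read 2.60 and 2.14 CPM against 20.0 and 14.3 CPM (-2.85 ± 0.16). Their part in the results was not tested.

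The same contrast was made in the proximal cells. Between haltere and wing tsh cells 3.26% of tested genes were called, 116 higher (1.04%) and 249 lower (2.22%). Of the 506 genes higher by at least 2-fold in haltere nub cells, 135 had the same sign in tsh cells, 20 were called higher and 32 lower there, and 380 differed between domains by the interaction term, for which 15.4% of tested genes were called. Of the 203 lower ones, 150 had the same sign, 54 were called lower and 10 higher in tsh cells, and 119 passed the interaction. The tsh counts rested on single libraries. Without wing tsh replicate 1, 197 of the 506 had the same sign in tsh cells. Their median tsh log2 fold change was then -0.17, against -0.33 with all libraries. Wing tsh replicate 1 had at least 1 read for 16559 genes, against 12597 to 13778 in the other tsh libraries, and its part was not tested. Leaving out wing tsh replicate 2 put 92 of the 506 among the genes called lower in tsh cells, and without haltere tsh replicate 1, 17 were and 214 passed the interaction. Over the tsh libraries left out in turn, all but that of wing tsh replicate 1 chosen after seeing the data, 104 to 134 of the 203 passed the interaction, and 33 (without haltere tsh replicate 1) to 79 (without wing tsh replicate 2) were called lower in tsh cells. DIP-epsilon, Glut4EF (211 against 96.2 CPM on average in haltere and wing tsh cells), CG42342 and Dh31-R (188 against 83.8 CPM) were higher in the haltere in both domains, with tsh log2 fold changes of 2.08, 1.13, 1.02 and 1.17 (edgeR adjusted p under 0.05 each). On the lower side nord (-2.27 in tsh cells), PGRP-LC (-2.62), side (-2.56) and lncRNA:CR45018 (-2.04) were lower in both.

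**Figure D5:**
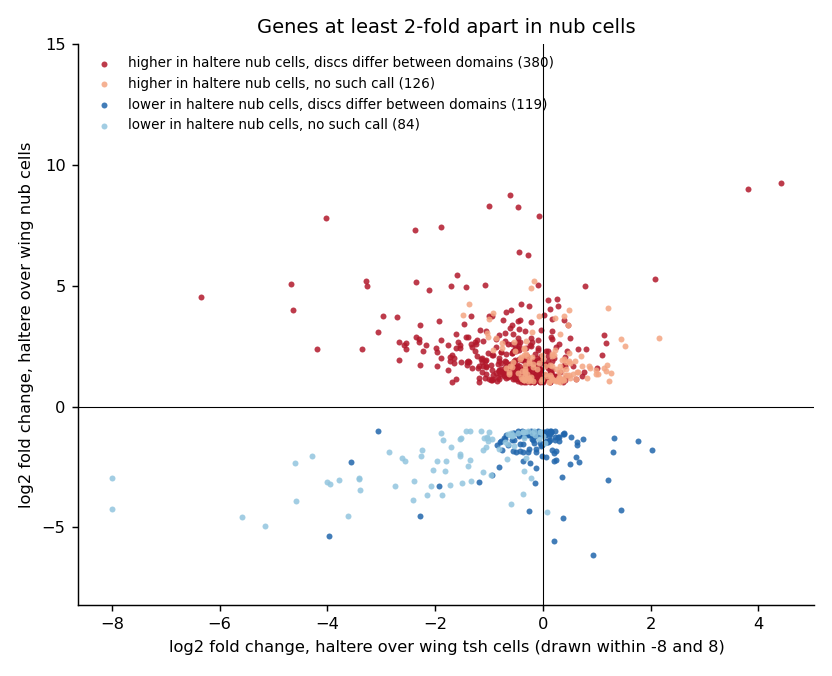
Log2 fold change, haltere over wing, in nub cells (vertical axis) and in tsh cells (horizontal axis) for the genes at least 2-fold apart in nub cells, 506 higher (red) and 203 lower (blue), with dark points for the 380 and 119 genes whose difference between discs itself differed between domains. Most higher genes lie left of or near 0 on the tsh axis, and the lower genes reach far to the left, where both domains are lower in the haltere.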

How the data were processed

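Per the labels' protocols, total RNA of sorted cells was extracted with TRIZOL and made into libraries with the Nugen Ovation Drosophila kit. The values used are the gene counts that the authors deposited, 1 table per library with 17807 gene IDs. The submitters' processing notes name bcl2fastq, Bowtie2, HISAT2, deepTools and the build dm6, while no source used here gives the counting tool, its annotation or its use of strand. Symbols and positions come from the RefSeq table of Release 6, which matched 17710 IDs. The 8 RNA libraries were fitted together in edgeR 4.0.16 (R 4.3.3) with TMM scaling and the default expression filter over the 4 groups, which kept 11198 genes and left out 6609. A robust quasi-likelihood test gave the haltere nub against wing nub contrast and its interaction with the tsh contrast, with Benjamini-Hochberg adjustment over all genes kept and 4 residual degrees of freedom. Fold changes use a prior count of 0.125. CPM are TMM-scaled.

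The 72 gene lists and the members described were chosen with earlier results of these data known. Misplaced list members were corrected after values were seen, though fng was left in the heparan sulfate list. The results of a further list are not reported here. Genes were named by rule: the largest called differences at 5 CPM or more, the largest differences in CPM, called list members at 5 CPM or more, members of runs, and Ubx and nub. Called genes with 2-fold differences and 100 CPM or more were added after seeing the data, and fne and CG3777, outside the rule, were chosen after their values were seen. Alternatives were other scalings and filters, thinning, each library left out, a replicate block, removal of a gene span trend, a test against a fold of 1.5 and DESeq2 1.42.0. The code was tested on simulated data with a smaller spread between replicates than these libraries have. Changes were put only into genes at 5 CPM or more. The simulation therefore does not show how calls behave at the real spread or in low genes. A floor of 3 counts and the exact 95% intervals cover counting error only. The replicate number did not pair the nub libraries (r = 0.0295 between the discs' replicate differences over 11198 genes), and a chi-square over genes (31.4 per gene in haltere nub and 14.9 in wing nub) put replicates apart by more than counting error.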

Additional observations from a re-analysis of the deposited data

Results flagged for a closer look

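The difference between discs itself differed between nub and tsh cells for 23 of 30 genes, by the interaction term in edgeR (nub log2 fold change minus tsh log2 fold change). They had the largest called differences of each direction in nub cells. Only genes at 5 CPM or more in the higher nub group, with nub libraries that did not overlap between discs, were eligible. The 30 were chosen by the nub difference, which is a term of the interaction, so their share cannot be read against the 15.4% of all tested genes, and the values are a description. Among genes higher in haltere nub cells, the interaction was 4.82 for Ubx, 5.19 for Cpr47Ee, 7.97 for Hsp70Bc, 3.20 for DIP-epsilon, 8.46 for Ccp84Ab, 9.74 for CG13023, 5.11 for CG32793, 4.21 for Eglp2 and 4.31 for CG15212, and these were called in every setting tried. It was 9.29 for Corin, 9.31 for CCAP-R, 7.05 for Cpr92A, 8.24 for Or1a, 10.87 for lncRNA:CR34024 and 4.21 for lncRNA:CR33938, whose interaction calls were lost in several settings, including some single nub or tsh libraries left out. Genes with 0 counts in a group have fitted values that depend on the prior count and are no bounds. Among genes lower in haltere nub cells, the interaction was -7.08 for Doc2, -5.78 for Doc1, -5.74 for Doc3, -5.0 for opa, -2.24 for Cpr12A, -4.06 for flap and -1.35 for CG14301, called in every setting, and -1.37 for ltl, lost without haltere tsh replicate 1 and in the test against a fold of 1.5. Cpr47Ee had 3168 counts in haltere nub and 1 in wing nub libraries, a ratio of 579 (exact 95% interval 104 to 22876), and Hsp70Bc had 1464 and 1, a ratio of 268 (47.9 to 10575). Hsp70Bc is a near-identical copy of Hsp70Ba and Hsp70Bbb, whose nub log2 fold changes were 1.25 and 1.85. How reads shared by these copies were counted is not given, so the Hsp70Bc counts are uncertain beyond the interval.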

How the results depend on the processing

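No called gene named in the text changed sign in any setting, and 202 of 524 named called genes kept their call in all of them. For haltere nub against wing nub, genes called with at least a 2-fold difference numbered 1251 with only the 4 nub libraries, where 3952 genes were called, 1893 of them higher. Against a fold of 1.5, 467 were called (270 higher, 197 lower, 414 at least 2-fold), and for the disc by domain interaction, genes called numbered 352. Each library left out in turn gave 1176 to 3664 calls, 441 to 1717 higher, 715 to 1947 lower, 417 to 1105 at least 2-fold and 695 to 3400 for the interaction. The lowest total came without haltere nub replicate 2 and the highest without wing tsh replicate 1, the fewest lower calls came without haltere nub replicate 1, and for the interaction the highest came without wing tsh replicate 2. The cause was not tested. Other scalings and filters, thinning, DESeq2 (2486) and the span trend (2362) kept the total within 1.5 times. The replicate block, whose numbers are not known to pair libraries, gave 2476 calls. Of genes under 1 CPM in both nub groups, 0.849% were called higher and 0.212% lower, and 0.749% and 0.449% after thinning, so that a missing call there does not show that levels were alike.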
